A study of Mus musculus with 12 samples.

Results

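The acute phase after repetitive mild traumatic brain injury (rmTBI) was examined in the miRNAs of exosomes labeled as microglial at 3 days post-injury (DPI). The comparison took in the 3 arrays of 3 DPI and the 3 arrays of sham mice, which are 6 of the 12 arrays of the series, and all 1881 mouse miRNAs on them. The mice were adult C57BL/6 males. The rmTBI mice received 4 closed-head impacts spaced 48 h apart, while the sham mice went through the same handling and anesthesia with no impact. The time at which the sham mice were sampled is not given in the labels, nor is it stated whether the arrays of a group came from separate mice, so the p-values below measure the spread between these samples, which may be technical. The exosomes, vesicles shed by cells, were precipitated from digested cerebral cortex and hippocampus and pelleted by ultracentrifugation. They were then captured with an antibody against CD11b, a surface protein of microglia and other myeloid cells.

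A miRNA is a short RNA, cut from a hairpin and loaded into an Argonaute protein. Its seed, which is bases 2 to 8 counted from the 5′ end, pairs with messenger RNAs and lowers their translation or stability. Vesicles carry a part of the miRNAs of the cell that made them, and activated microglia release vesicles that neurons and glia can take up. Among miRNAs that myeloid cells are known for, miR-155-5p rises on inflammatory activation, miR-146a-5p restrains NF-kB signaling, and miR-223-3p and the miR-142 arms mark blood-derived and resident myeloid cells.

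Of the 486 miRNAs tested, 418 matched a mature miRNA in RefSeq on build GRCm38.p6, and those on which the results turn are printed 5′ to 3′ with the seed in capitals. The first set holds the miRNAs that came closest to a difference between 3 DPI and sham, and it is shown because no shared seed joins its members, except in the pair from the 2 miR-30c hairpins.

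miR-770-3p: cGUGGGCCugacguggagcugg
miR-378d: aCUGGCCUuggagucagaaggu
miR-744-5p: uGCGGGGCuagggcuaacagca
miR-137-3p: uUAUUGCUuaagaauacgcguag
miR-125b-5p: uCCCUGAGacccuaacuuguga
miR-30c-1-3p: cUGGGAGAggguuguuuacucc
miR-30c-2-3p: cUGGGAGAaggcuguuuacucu
miR-484: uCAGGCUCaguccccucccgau
miR-193b-3p: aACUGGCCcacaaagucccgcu
miR-5100: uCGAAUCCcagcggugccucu
miR-3475-5p: aAAUCAUGuacccccacagagg
miR-7687-3p: cCACUCAGucgccccgccaca
miR-3082-5p: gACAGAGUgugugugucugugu

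The second set holds examples of 2 kinds of miRNA that stood at opposite ends of the spread between arrays. The first are rich in G and C (59.1% to 94.7%). The others are well-known brain miRNAs with fewer of these bases (40.9% to 52.2%), none of them in the set under 40% used below.

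miR-6538: cGCGGGCUccggggcggcg
miR-5128: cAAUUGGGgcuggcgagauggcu
miR-6939-5p: cAGGCAGCugguugguggaag
miR-6354: uGCCCUGGggaucaggucucu
miR-5622-3p: cUUAGCUGgguagugguggugc
let-7c-5p: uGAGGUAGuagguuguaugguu
let-7b-5p: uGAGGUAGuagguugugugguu
miR-29a-3p: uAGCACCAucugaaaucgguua
miR-342-3p: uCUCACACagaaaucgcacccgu
miR-132-3p: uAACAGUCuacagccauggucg

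No miRNA passed the test for a difference between 3 DPI and sham. With limma, 0 of 486 miRNAs had an adjusted p under 0.05, a share of 0%, and the smallest adjusted p was 1. At an unadjusted p under 0.05 there were 11, of which 4 were higher (0.823% of those tested) and 7 lower (1.44%) at 3 DPI. Only 302 of the 486 were detected on all arrays of sham or of 3 DPI. The others entered the test through later time points of the series. The methods' t-test gave 3 at an unadjusted p under 0.05 and 0 after adjustment. These miRNAs are described by their values and are not a list of changed miRNAs. One of the 11 is miR-124-3p, whose 30 spots in each injury file carry scan positions of other arrays. No conclusion is drawn from it, but it stays in counts over the tested miRNAs and is named where an alternative called it.

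The precision of the comparison can be read from the miRNAs that were measured well. Detection on an array required the scanner software to place more than 0.5 of the spots of any probe of the miRNA well above background, and 234 of the tested miRNAs were detected on all 6 arrays. Levels are given on the log2 scale after dividing each array by its own 75th percentile, so that 0 is the 75th percentile and a difference of 1 is a doubling. Over the 234, the median difference between 3 DPI and sham was -0.03, and the differences ran from -0.70 to 0.95, with 0 past 2-fold. The 95% interval of the difference lay wholly within 2-fold in either direction for 139 of them (59.4%), and the median distance from estimate to interval limit was 0.67. For the rest of the 234, the interval took in a 2-fold change in at least 1 direction. The median spread (SD) between arrays of a group was 0.31 in sham and 0.42 at 3 DPI, against a median absolute difference between the groups of 0.17.

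**Figure D1:**
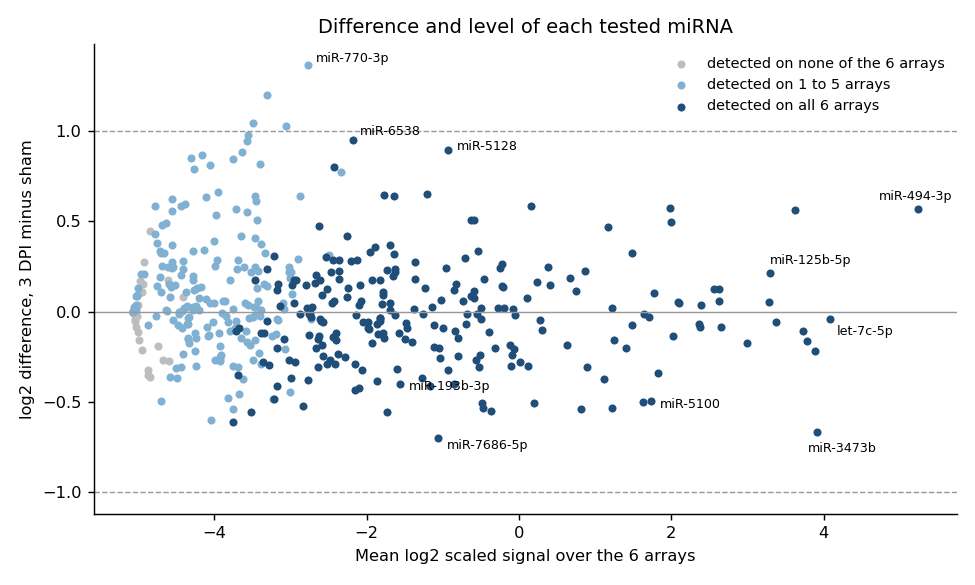
The fitted log2 difference of 3 DPI minus sham (vertical axis) of each tested miRNA except miR-124-3p is plotted against its mean log2 scaled signal over the 6 arrays (horizontal axis), colored by the number of arrays that detected it. The dashed lines mark 2-fold; the 234 miRNAs detected on all 6 arrays all lie between them, and the points past the upper line belong to dimmer miRNAs that some arrays did not detect.

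The groups did not overlap in the brightness of their arrays. Sham replicates 1, 2, and 3 detected 285, 243, and 284 miRNAs, and 3 DPI replicates 1, 2, and 3 detected 326, 392, and 416. All 3 arrays of 3 DPI were above all 3 of sham, with means of 378 ± 46.6 and 271 ± 24.0 (mean ± SD, n = 3 each; two-sided exact permutation test, p = 0.1, the smallest that 3 against 3 can give). The 75th percentile before scaling was 285, 217, and 348 in sham and 401, 619, and 451 at 3 DPI, in arbitrary units of intensity, a ratio of the means of 1.73 (two-sided exact permutation test, p = 0.1). Of the tested miRNAs, 186 were detected on more arrays at 3 DPI than in sham, 0 on fewer, and 300 on as many. More exosomes and more RNA per exosome cannot be told apart in such bulk samples, nor can either be told apart here from the amount of RNA put on the array. The 3 sham arrays and replicate 1 of 3 DPI were on slide 1, and replicates 2 and 3 of 3 DPI on slide 2, so a value within one slide rests on replicate 1 of 3 DPI alone. That replicate had the lowest count and the lowest 75th percentile of the 3 DPI arrays, and both were above those of each sham array.

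**Figure D2:**
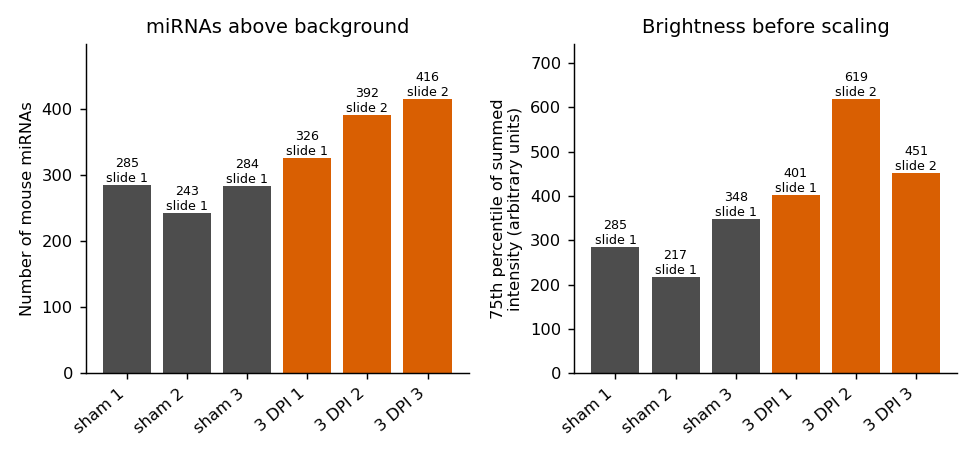
The number of mouse miRNAs detected (left) and the 75th percentile of the summed intensity before scaling (right, arbitrary units) are drawn for each sham array (gray) and each 3 DPI array (orange), with the slide above each bar. On both measures the 3 arrays of 3 DPI stand above the 3 sham arrays, and the lowest of them is the only one that shares the sham arrays' slide.

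Detection on all 3 arrays of 3 DPI and none of sham was found for 5 miRNAs, miR-378d, miR-1249-3p, miR-3093-3p, miR-139-3p, and miR-329-3p, and the reverse for 0. Signals of miR-378d were -3.36, -4.05, and -3.94 in sham and -3.52, -3.32, and -2.59 at 3 DPI on the log2 scale. The groups overlapped, since sham replicate 1 was above replicate 1 of 3 DPI. Where a miRNA was not well above background on any array of a group, its change has only a bound, taken on each array against the lowest signal detected there or the miRNA's own signal where that was higher. For miR-378d that gave a ratio of 1.42, an estimate from the group means with no allowance for the spread between arrays. The fitted difference was 0.64 ± 0.25 (SE; limma, unadjusted p = 0.034, adjusted p = 1). Its 95% interval ran from 0.06 to 1.22, so a far smaller difference was not excluded. For miR-1249-3p, which sham read at -3.21 to -4.08 and 3 DPI at -2.82 to -3.96, the difference was 0.04 and no bound is given. The remaining 3 had signals too close to the limit for any bound above 1, and their differences were 0.58 for miR-3093-3p, -0.07 for miR-139-3p, and 0.24 for miR-329-3p, a miRNA of the large imprinted cluster on chromosome 12. The 5 were thus newly detected on arrays that detected more miRNAs in all, and their fitted differences ran from -0.07 to 0.64.

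Apart from miR-124-3p, the largest fitted difference was that of miR-770-3p, whose mature sequence (chr12:109563744-109563765, plus strand) lies within the span of Meg3, a maternally expressed long noncoding RNA that is abundant in brain. It was read at -2.82, -3.44, and -4.07 in sham and at -3.07, -1.99, and -1.19 at 3 DPI, and it was detected on 1 sham array and on all 3 of 3 DPI. Replicate 1 of 3 DPI fell inside the sham range, and only the other 2 were above it. Sham replicate 1 and 3 DPI replicate 3 were the highest of their groups for this miRNA, of 72.7% G+C, and also for miR-378d. That pattern between arrays is described below, and its part in the difference was not tested. The difference was 1.36 ± 0.45 (SE; 95% interval 0.34 to 2.39; limma, unadjusted p = 0.0149, adjusted p = 1), a fold of 2.57, and it was 0.38 within slide 1. Before scaling, its intensity was 20.0 to 40.2 in sham and 47.9 to 198 at 3 DPI. All 3 arrays of 3 DPI were brighter as a whole, so the unscaled values take in that brightness too. Leaving out single arrays moved the difference between 0.92 and 1.86, and it was far smaller with the software's total signal (0.14) and with normexp (0.28), each relative to the shift of all miRNAs.

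The third miRNA that was higher at an unadjusted p under 0.05 was miR-744-5p, from within Map2k4, which encodes a kinase of stress signaling. It was at the floor on all 3 sham arrays and on replicate 1 of 3 DPI, and at -3.85 and -4.53 on the other 2, which were the only arrays to detect it. The fitted difference was 0.58 ± 0.24 (SE; limma, unadjusted p = 0.0395, adjusted p = 1) and 0.00 within slide 1, and it was 1.27 with the floor at 0.5 times and 0.072 with it at 2 times its level. No bound above 1 could be given, and the sign turned with normexp and in the deposited table, and without scaling once the shift of all miRNAs was subtracted.

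Among the 7 miRNAs that were lower at an unadjusted p under 0.05, only miR-5100, miR-3475-5p, and miR-193b-3p were detected on all 6 arrays. The level of miR-5100 (chr11:60728698-60728718, plus strand, within the span of Mief2) was 1.91, 1.94, and 2.09 in sham and 1.72, 1.36, and 1.39 at 3 DPI. All 3 sham arrays were above all 3 of 3 DPI, and the difference was -0.49 ± 0.18 (SE; 95% interval -0.90 to -0.09; limma, unadjusted p = 0.0226, adjusted p = 1), with -0.26 within slide 1 and the opposite sign only under normexp, relative to the shift of all miRNAs. Before scaling, the intensity of miR-5100 was 832 to 1484 in sham and 1179 to 1585 at 3 DPI, so its lower level appeared only after scaling. For miR-193b-3p (chr16:13449570-13449591, plus strand), a miRNA linked to brown fat and muscle, sham read -1.45, -1.44, and -1.21 and 3 DPI -1.48, -1.93, and -1.89. These groups did not overlap either, but the replicate on slide 1 lay just below the sham values, and the difference of -0.40 (SE 0.18; limma, unadjusted p = 0.0485, adjusted p = 1) was -0.12 within that slide. Its intensity before scaling was 79.9 to 150 in sham and 121 to 163 at 3 DPI, so this lower level also appeared only after scaling. The related miR-193a-3p, which carries the same seed, was detected on 0 sham arrays and 0 arrays of 3 DPI. For miR-3475-5p, from an X-linked hairpin within Frmpd3, the sham levels of -3.31, -2.88, and -3.52 overlapped those of 3 DPI at -3.80, -4.12, and -3.46. Before scaling, its intensity was 28.6 to 30.4 in sham and 28.7 to 41.1 at 3 DPI, and thus not lower at 3 DPI.

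The other 4 lower miRNAs were near background. The passenger arms of both miR-30c hairpins, which share a seed, were both lower. The first, miR-30c-1-3p, from within the span of Nfyc, which encodes a transcription factor subunit, was read at -4.26, -4.39, and -4.69 in sham and -4.75, -5.06, and -5.01 at 3 DPI, where -5.06 is the floor and not a reading. Its groups did not overlap, its unadjusted p of 0.00941 with limma was the smallest of all those reported here (adjusted p = 1), and yet it was detected on 0 sham arrays and on 1 array of 3 DPI. Before scaling, its intensity was 10.4 to 14.9 in sham and 12.4 to 14.9 at 3 DPI, so that the lower level at 3 DPI appeared only after division by the 75th percentile, which was higher at 3 DPI. The same held for miR-7687-3p, with intensities of 19.4 to 21.6 in sham and 19.1 to 27.9 at 3 DPI and a difference after scaling of -0.60, and for miR-484, with 11.5 to 14.7 against 13.7 to 23.1 and a difference of -0.36. The second passenger arm, miR-30c-2-3p, had a difference of -0.36 after scaling and intensities of 12.3 to 17.7 in sham and 15.5 to 22.9 at 3 DPI. Their size depended on the floor. The difference of miR-30c-1-3p was -0.69 with the floor at 0.5 times and 0.00 with it at 2 times its level, where those of miR-30c-2-3p, miR-484, and miR-7687-3p were 0.00, -0.016, and -0.30. With the software's total signal the sign turned for all of these but miR-7687-3p. How far background in these low signals took part in the 4 differences was not tested.

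A complete separation of the 3 DPI arrays from the sham arrays was found for 3 miRNAs above (0.617% of those tested) and 7 below (1.44%), again with miR-124-3p among the first. The 2 that were higher are both well-known brain miRNAs. Levels of miR-125b-5p, which comes from hairpins on chromosomes 9 and 16 and is known in neurons and glia, were 3.01, 3.21, and 3.34 in sham and 3.35, 3.40, and 3.45 at 3 DPI. Those of miR-137-3p (chr3:118433901-118433923, plus strand), a regulator of neuronal differentiation, were 0.20, 0.16, and 0.42 in sham and 0.44, 0.46, and 0.62 at 3 DPI. The gap between the nearest arrays of the 2 groups was 0.01 and 0.02, and the differences of 0.21 (95% interval -0.12 to 0.55) and 0.25 (95% interval -0.07 to 0.56) did not pass the test. Among the 7 that were lower were miR-30c-1-3p, miR-5100, miR-484, and miR-193b-3p, described above. The remaining 3 were miR-1897-5p with a difference of -0.55, miR-3082-5p with -0.61, and miR-133a-3p, a muscle miRNA that was detected on none of the 6 arrays, with -0.27. Within slide 1, 0 of the 15 miRNAs named so far for their p or their separation reversed, with the value of miR-744-5p at 0.00.

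**Figure D3:**
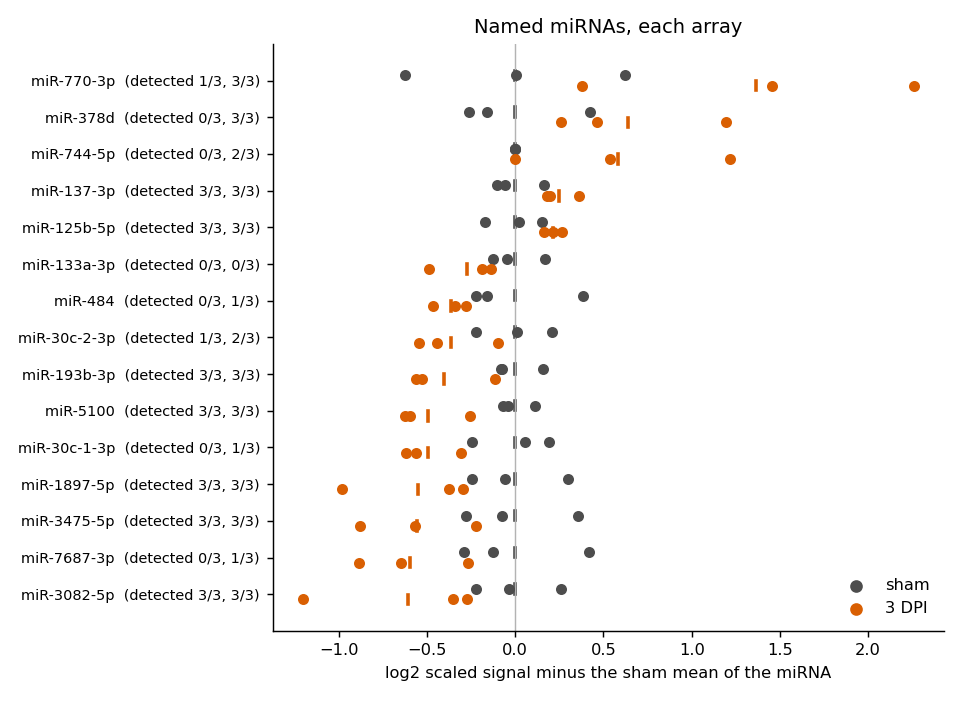
Each point is 1 array, drawn as its log2 scaled signal minus the mean of the 3 sham arrays for that miRNA (horizontal axis), for the 15 miRNAs with an unadjusted p under 0.05 or with no overlap between the groups; short bars mark group means, and the number of sham and 3 DPI arrays that detected each miRNA follows its name. For miR-193b-3p, miR-125b-5p, and miR-137-3p the nearest arrays of the 2 groups almost touch, and for miR-770-3p 1 array of 3 DPI lies among the sham arrays.

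The cell type named in the labels was then checked against its markers. Of 9 miRNAs known from microglia and other myeloid cells, 6 were detected on none of the 6 arrays, namely both arms of miR-142a, miR-155-5p, miR-223-5p, and both arms of miR-511. The regulator miR-146a-5p was detected on 0 sham arrays and 1 array of 3 DPI, and miR-223-3p, abundant in neutrophils and other myeloid cells, on 1 and 3, at -3.57 to -3.99 in sham and -3.74 to -3.94 at 3 DPI. The only member detected throughout was miR-342-3p, which neurons also express, with levels of 0.55, 1.24, and 1.32 in sham and 1.37, 0.89, and -0.06 at 3 DPI. Its lowest array was replicate 3 of 3 DPI and the groups overlapped (difference -0.31, 95% interval -1.16 to 0.55). By contrast, 13 of 14 neuronal miRNAs and 3 of 4 oligodendrocyte miRNAs were detected on all 6 arrays. The markers thus went against the cell type in the labels, and microglial is used here only as the labels' name for the exosomes. The tested members of the myeloid list (4 of 9) had a median difference of -0.09, with 0 called.

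None of the other cell type lists had a member that passed the test. The neuronal miRNAs had a median difference of 0.06 over 14 tested members, 11 of them positive, against 0.00 over all 486 tested, of which 235 were positive. Their summed scaled signal was 23.6 to 32.4 in sham and 23.5 to 34.6 at 3 DPI. Within this list, miR-9-5p, which acts in neural progenitors and neurons, read 0.62, 1.06, and 1.10 in sham and 1.08, 1.85, and 1.26 at 3 DPI, for the largest difference of the list at 0.47 (95% interval -0.20 to 1.13). The other arm of the same hairpins, miR-9-3p, differed by -0.17. The activity-induced pair miR-132-3p and miR-212-3p differed by 0.06 and 0.09, and miR-132-3p ranged from 1.15 to 2.85 within 3 DPI alone.

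Oligodendrocyte miRNAs had a median difference of 0.07 over 4 tested members, with 0.22 for miR-338-3p, which promotes maturation of these cells, and 0.13 for miR-219a-5p, which does the same. Their summed signal was 1.81 to 2.51 in sham and 2.14 to 3.64 at 3 DPI. Of the erythrocyte miRNAs only miR-486a-5p was tested (difference 0.20), and the red-cell miR-451a was detected on 0 sham arrays and 2 of 3 DPI, with a summed signal of the list between 0.0707 and 0.178 on every array. Of the vessel miRNAs the endothelial miR-126a-3p was detected on all 6 arrays, at 0.00, 0.47, and 0.33 in sham and 0.44, -0.13, and -0.40 at 3 DPI, while the smooth muscle miR-145a-5p was detected on none. The choroid plexus and epithelial list had a median of -0.06 over 7 tested members. Its largest difference was 0.51 for miR-204-5p, which is abundant in choroid plexus and astrocytes (95% interval -0.04 to 1.05). The miR-200 family of epithelial cells moved by array and not by group: miR-200b-3p read -1.28, -0.87, and -2.22 in sham and -0.94, -0.92, and -1.97 at 3 DPI, so that replicate 3 was the lowest in both groups.

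For an acute injury the inflammatory miRNAs are of particular interest, and 9 of the 12 listed were tested. None passed the test, the median difference was 0.13, and 7 of the 9 were positive, beside 235 positive, 209 negative, and 42 at 0 among all 486 tested. The NF-kB-induced miR-155-5p and miR-155-3p were detected on none of the 6 arrays. The level of miR-21a-5p, which rises in many injured tissues, was -0.91, -0.42, and -0.31 in sham and -0.26, -0.37, and -1.04 at 3 DPI, with a difference of -0.01 (95% interval -0.67 to 0.65). The paired miR-221-3p and miR-222-3p differed by 0.22 and 0.28, and miR-181a-5p, which damps cytokine responses, by 0.33. The lowest interval limit among these 3 was -0.49 and the highest 0.97, so a change of up to 2-fold upward could have been missed.

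Lists of broadly expressed families were described in the same way. The let-7 and miR-98 list, 9 of 9 tested, had a median difference of -0.07 and ran from -0.16 to 0.18. Its member let-7c-5p was 3.83, 4.22, and 4.24 in sham and 4.26, 4.20, and 3.70 at 3 DPI. The 2 lowest values came from sham replicate 1 and 3 DPI replicate 3, a pattern taken up below. The miR-29 family had a median of 0.04, the miR-30 family 0.08, the miR-23, miR-27, and miR-24 list 0.14, the list of miR-15, miR-16, miR-103, and their relatives -0.02, and the cell-cycle list of the miR-17 cluster with its paralogs -0.07 over 8 of 11 members. The p53-linked miR-34 list had the lowest median, -0.18 over 4 of 5 members, with miR-34a-5p at 1.28, 1.65, and 1.57 in sham and 1.29, 1.59, and 1.01 at 3 DPI. No member of these 7 lists passed the test or had an unadjusted p under 0.05.

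**Figure D4:**
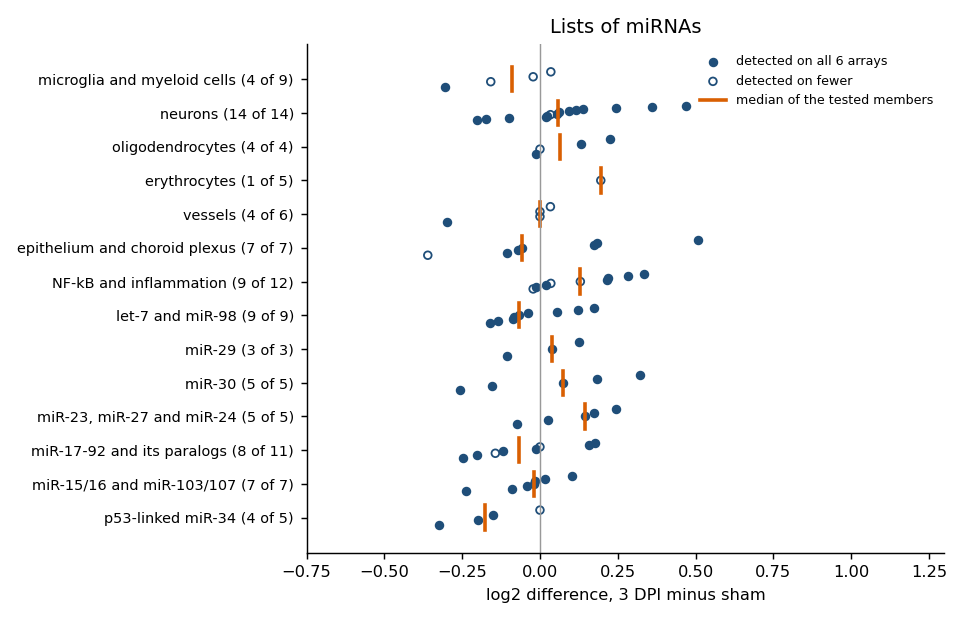
Each point is a tested miRNA placed at its log2 difference of 3 DPI minus sham (horizontal axis) within its list (rows, with the number tested of the number listed); filled points were detected on all 6 arrays, open points on fewer, and the orange bar is the median of the list. All medians lie between -0.18 and 0.20, and every list has points on both sides of 0 or at it, except the erythrocyte list, which has a single point.

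The spread between arrays of a group had a structure of its own. Across the 486 tested miRNAs, sham replicate 1 had a Pearson r of 0.981 with 3 DPI replicate 3, but of only 0.963 and 0.942 with the other sham arrays. Replicate 3 of 3 DPI likewise had an r of 0.943 and 0.917 with the other arrays of its own group. Sham replicates 2 and 3 and replicate 1 of 3 DPI resembled one another, with r between 0.984 and 0.988. The points behind each r are miRNAs and not replicates. Likeness between arrays thus crossed the groups.

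This spread went along with base composition. Each array was set against the mean of its own group over the 205 miRNAs that were detected on all 6 arrays and have a RefSeq sequence. The deviation had an r with the G+C percentage of the mature sequence of 0.57 in sham replicate 1 and 0.66 in 3 DPI replicate 3, and of -0.41, -0.48, -0.25, and -0.65 in sham replicates 2 and 3 and 3 DPI replicates 1 and 2. In contrast, the r of the difference between 3 DPI and sham with G+C was -0.04. Among the 64 miRNAs with a G+C of 60% or more, the median deviation was 0.41, -0.06, and -0.39 in sham and -0.10, -0.56, and 0.61 at 3 DPI. Among the 33 with less than 40%, it was -0.30, 0.10, and 0.22 in sham and -0.02, 0.24, and -0.26 at 3 DPI. Not all members followed these medians. On 3 DPI replicate 3, miR-1187, miR-466i-3p, and miR-467f, all under 40%, deviated by 0.43, 0.64, and 0.56. The medians of the 2 sets had opposite signs on 5 of 6 arrays, the exception being 3 DPI replicate 1; since each array was centered on its own group, deviations of both signs within a group follow from the centering. These deviations share the arrays, the dye and the probes, and the source of the pattern was not tested.

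**Figure D5:**
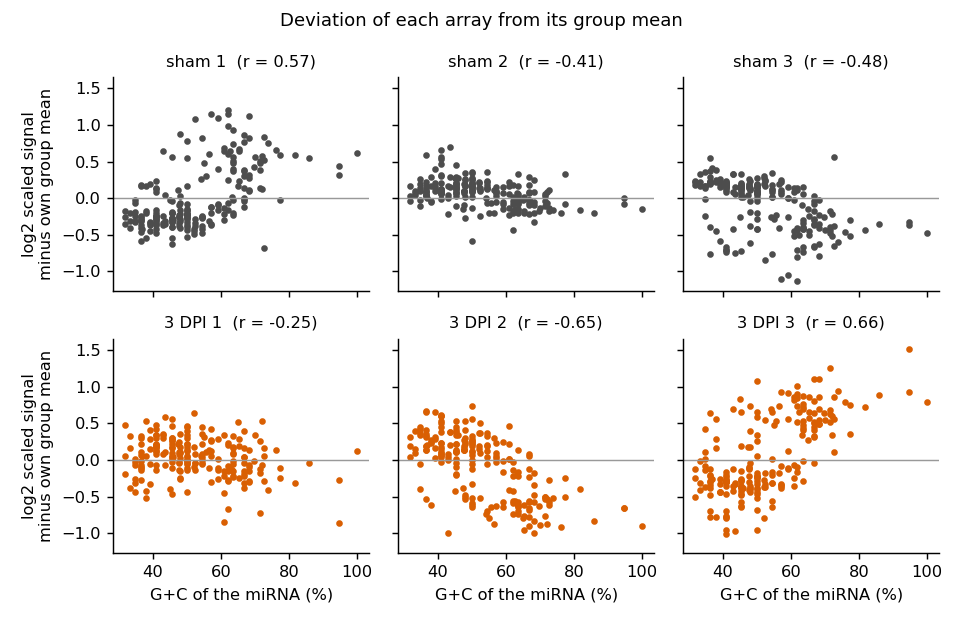
Each panel is 1 array, and each point 1 of 205 miRNAs, placed by the G+C percentage of its mature sequence (horizontal axis) and by its log2 scaled signal minus the mean of the array's own group (vertical axis), with the Pearson r across miRNAs in the title. The slope is upward in sham replicate 1 and 3 DPI replicate 3 and downward in the other 4 arrays.

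The 5 largest upward differences among the 256 miRNAs detected on at least 2 arrays of each group were highest, within each group, on the same 2 arrays. They were miR-6538 (0.95), miR-5128 (0.89), miR-6939-5p (0.80), miR-8097 (0.77), and miR-6354 (0.65), and the functions of these miRNAs are not well established. The level of miR-6538, with 94.7% G+C in the sequence above, was -2.21, -2.73, and -3.02 in sham and -2.57, -2.37, and -0.18 at 3 DPI. Only replicate 3 of 3 DPI was above the sham range, and the 95% interval of the difference was -0.39 to 2.29. For miR-6354, read at -0.32, -1.61, and -2.67 in sham and -1.03, -1.47, and -0.14 at 3 DPI, the highest sham array was replicate 1. In each of the 5, replicate 1 was the highest of the sham arrays and replicate 3 the highest of the 3 DPI arrays.

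The 5 largest downward differences were those of miR-7686-5p (-0.70), miR-3473b (-0.67), miR-3082-5p (-0.61), miR-3475-5p (-0.56), and miR-1897-5p (-0.55). Replicate 2 of 3 DPI was the lowest of the 6 arrays for all 5. Without it, the differences of miR-3082-5p, miR-3475-5p, and miR-1897-5p were -0.31, -0.39, and -0.34. The level of miR-3473b was 4.41, 4.22, and 4.09 in sham and 4.10, 2.78, and 3.85 at 3 DPI. The level of miR-7686-5p was -0.59, -0.64, and -0.93 in sham and -0.89, -2.29, and -1.08 at 3 DPI. Replicate 2 of 3 DPI stood well below the other 5 arrays in both, and the intervals of both differences took in 0 (-1.46 to 0.12 and -2.02 to 0.63).

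Signals of different probes do not rank amounts, so the miRNAs with the highest signals are given only for their spread. The 8 highest were miR-494-3p, let-7c-5p, miR-3473b, miR-3963, let-7b-5p, miR-29a-3p, miR-5622-3p, and miR-467a-3p. The level of miR-494-3p, from the imprinted cluster on chromosome 12, was 5.52, 5.10, and 4.24 in sham and 5.06, 5.33, and 6.18 at 3 DPI. Its groups overlapped, and its difference of 0.57 had a 95% interval of -0.83 to 1.97. The widest spread of the 8 was that of miR-5622-3p, at 4.43, 3.28, and 2.29 in sham and 3.63, 3.25, and 4.81 at 3 DPI. The narrowest was that of miR-467a-3p, between 3.23 and 3.46 on all 6 arrays; on sham, 2 spots per array bear the names of miR-467a-3p and miR-124-3p the other way round, and were read here under the injury arrays' names.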

How the data were processed

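Agilent single-color miRNA arrays (3 per group, 12 in all) were hybridized with cyanine 3-labeled RNA of exosomes labeled as microglial and, per the submitters' processing notes, read with Agilent Feature Extraction 10.7.1.1. Per spot, the authors deposited an intensity on a linear scale with background already removed by the software and no normalization between arrays. A second deposited table, on a log2 scale, was used only as an alternative. Its median was -3.32 in every column, which was also its lowest value. Its scaling and centering are not given in the sources used here.

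The files held 58594 spots each, 56430 of them not controls, for 4415 probes of 1881 mouse miRNAs, with 0 saturated. After removal of control and outlier spots, spot means were summed over the probes of a miRNA, scaled to the 75th percentile of 230 miRNAs that every array detected, floored at -5.06 and log2-transformed. The test took in 486 miRNAs that at least 1 group of the series detected on every array. Of these, 302 were detected on all arrays of sham or of 3 DPI, and the rest entered through later time points alone. On the 6 arrays compared here, 65 were detected on none, and 42 were at the floor throughout, with a difference of 0. With a filter on sham and 3 DPI only, 0 were called and 2 had an unadjusted p under 0.05 (limma). limma 3.58.1 (R 4.3.3) fitted the 12 arrays together, and the contrast of 3 DPI with sham was tested two-sided with Benjamini-Hochberg adjustment, after a check on simulated data. Tables, exact tests and plots were made with Python 3.11.15 (NumPy 2.4.6; pandas 2.3.3; SciPy 1.17.1; matplotlib 3.10.9). The number of arrays limits the precision.

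Named miRNAs had an unadjusted p under 0.05 or no overlap between the groups (with a test), or, as values only, were the 5 largest differences each way among those detected on at least 2 arrays of both groups, the 8 highest signals, those detected on all arrays of one group and none of the other, or list members. The members and lists were chosen with earlier results of these data known. Alternatives changed the signal (total signal, brightest probe, normexp with offset 50), the scaling (other percentile, quantile, none), the floor, the detection filter, the fit (6 arrays, replicate block, slide block, the methods' t-test) or the arrays (each left out), or took the deposited table. Of the ANOVA or t-test named in the study's general statistics, the ANOVA was not run.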

Additional observations from a re-analysis of the deposited data

Results flagged for a closer look

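Changes from sham were compared between time points, in the same fit and with the sham arrays canceling out; these are differences of 14 or 42 DPI from 3 DPI. Between 14 and 3 DPI, 3 of the 486 tested miRNAs differed (limma, adjusted p under 0.05), among them miR-5100, by 1.63 on the log2 scale (adjusted p = 0.00344), and miR-3963, by 1.51 (adjusted p = 0.00973). Between 42 and 3 DPI, 186 of the 486 tested differed, among them 14 of the miRNAs named above. A difference was thus common among all tested miRNAs, and the 14 are given as values and not as a trait of theirs. Higher at 42 than at 3 DPI were miR-329-3p by 1.65 (adjusted p = 0.0188), miR-467a-3p by 0.69 (adjusted p = 0.0282), miR-3963 by 0.67 (adjusted p = 0.0371), and miR-5100 by 0.58 (adjusted p = 0.037). The differences of 42 from 3 DPI were -3.20 for miR-5622-3p, -3.09 for miR-8097, -2.94 for miR-6354, -2.24 for miR-5128, and -2.20 for miR-6538 (adjusted p between 0.0282 and 0.037). They were -1.89 for miR-7686-5p, -1.27 for miR-3475-5p and miR-1249-3p, -0.93 for miR-1897-5p, and -0.72 for miR-7687-3p (adjusted p between 0.0172 and 0.0382). The 75th percentile before scaling was 588 to 1173 on the 14 DPI arrays and 1385 to 2936 on the 42 DPI arrays, against 401 to 619 at 3 DPI. All arrays of 14 and 42 DPI were on slide 2. The part of brightness and slide in the differences of either time point from 3 DPI was not tested.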

How the results depend on the processing

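At an adjusted p under 0.05, 0 miRNAs were called at 3 DPI in 28 of 31 alternatives, of which 30 used limma and 1 the methods' t-test. The others were quantile normalization with 3 (miR-124-3p, miR-486a-5p, and miR-8095, each detected on 0 sham arrays), the deposited table with 95, and the fit without 14 DPI replicate 1 with 1, which was miR-124-3p, so that leaving out single arrays gave 0 to 1. Of the 95, 59 were higher and 36 lower, 85 were detected on 0 sham arrays, 32 on none of the 6 arrays, and 1 on all 6; the cause was not tested. The methods' t-test gave 0 (3 at an unadjusted p under 0.05), and slide as a block 0 (0 at an unadjusted p under 0.05 over 12 arrays, 1 over 6). Whether replicate numbers pair the arrays could not be decided. Same-numbered arrays deviated with r of -0.41, 0.62, and -0.69 over all miRNAs detected throughout, an r that also takes in the pattern of base composition. The miR-200 family, in contrast, was lowest on replicate 3 in both groups. The replicate block gave 0 calls (9 at an unadjusted p under 0.05 against 11), or 0 over the 6 arrays alone (4). Leaving out both arrays that resembled each other across the groups gave 0 (10); these last 2 fits were chosen after seeing the data.

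The direction of the named miRNAs depended on the scaling, and not only in dim ones. Without scaling the sign also turned for miR-5100, miR-193b-3p, miR-3475-5p, miR-1897-5p, and miR-3082-5p, which were detected on every array of both groups. The median of all tested miRNAs moved by 0.64 without scaling, 0.24 with total signal, and -0.39 with normexp, and the sign turned for 9, 4, and 3 of the 15 tested by name. Relative to these shifts, 12 of 474 values reversed. Total signal turned miR-30c-1-3p (2.84), miR-133a-3p (2.60), miR-484 (1.60), and miR-30c-2-3p (0.25), quantile normalization miR-30c-2-3p (0.49), miR-133a-3p (0.27), and miR-484 (0.21), and the deposited table miR-30c-1-3p (3.26, adjusted p = 1.13e-05) and miR-744-5p (-0.52). Normexp turned miR-5100 (0.074) and miR-744-5p (-0.080), and no scaling miR-744-5p (-0.18). The deposited table also called miR-7687-3p (-1.17) and miR-3082-5p (-1.54). Of 405 list medians, 36 moved by more than the spread between the 3 DPI arrays.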

Other observations

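The imprinted miRNA cluster between Meg3 and Mirg (chr12:109540996-109749458 on GRCm38.p6) is expressed from the maternal chromosome and is active in neurons. It was looked at after its values had been seen, so it is given without a test. It held 49 of the tested miRNAs with a RefSeq sequence, 25 of them detected on all 6 arrays. Of the 49, 32 were higher at 3 DPI, 14 lower, and 3 equal, beside 235, 209, and 42 of all 486 tested, with a median difference of 0.07 against 0.00, 0 called, and 1 (miR-770-3p) with an unadjusted p under 0.05. For miR-127-3p, which regulates a retrotransposon-derived gene on the opposite strand, the levels were -0.01, 0.15, and 0.08 in sham and 0.03, 0.14, and 0.27 at 3 DPI. For miR-410-3p they were -0.40, 0.31, and 0.53 in sham and 0.41, 0.11, and -0.90 at 3 DPI, again with the 2 lowest values on sham replicate 1 and 3 DPI replicate 3. The median deviation of the 25 from their group mean was -0.26 and -0.22 on these 2 arrays and between -0.04 and 0.21 on the other 4.

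In the deposited table, 287, 329, and 300 miRNAs on the sham arrays and 253, 190, and 158 on the 3 DPI arrays carried a value above the table's lowest, although the scanner software had not called them detected on that array.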
